A study of Homo sapiens with 12 samples.

Results

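Complement and coagulation genes were examined in human liver spheroids exposed to total parenteral nutrition (TPN), the complete feeding solution that is given into a vein. The members are all 74 genes, out of 16705 in the deposited table, whose KEGG annotation there names the pathway Complement and coagulation cascades. By textbook role, 20 of them are coagulation genes, 8 belong to fibrinolysis, 24 are complement genes and 22 are inhibitors of either cascade. F9 was not analysed here. The spheroids combined C3A, a subclone of the human hepatoma line HepG2 chosen for its hepatocyte character, with LX-2, an immortalised human stellate line. Each of 4 groups has 3 libraries: untreated at 24 h, 1% TPN at 24 h, untreated at 144 h and 1% TPN at 144 h. The mixture held amino acids and electrolytes, glucose, a lipid emulsion, trace elements and vitamins, and untreated spheroids of the same exposure time were the controls. All groups shared the same serum-containing medium, every library pooled many spheroids, and each cell type is represented by a single line. The replicates came from independent experiments according to the methods of the study.

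In the body most of these proteins are made by hepatocytes and secreted into blood as inactive precursors. Clotting is a chain of proteases that ends in thrombin, which turns fibrinogen into fibrin, and plasmin dissolves that fibrin again. Complement is a second chain of proteases that marks and lyses microbes, entered through the classical, lectin or alternative pathway and joined at C3. Serpins and membrane regulators hold both chains in check, and several clotting factors need a vitamin K-dependent carboxylation to work.

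The values are FPKM, in which sequenced fragments are scaled both to transcript length and to library size, so levels of different genes can be set side by side. Library totals ran from 561657 to 583722 FPKM, and the steps of low values pointed to about 18200000 fragments per library, from 17640000 in the lowest to 18840000 in the highest. At that depth 1 fragment on a transcript of 2000 bases is worth 0.03158 FPKM. Hepatocyte markers were abundant, with 11 genes summing to between 10990 and 16600 FPKM in a library, although CYP7A1 averaged 0.02 FPKM or less. The 11 stellate markers summed to 137.8 to 145.8 FPKM in untreated and 122.7 to 125.9 FPKM in exposed spheroids at 24 h, and to 75.77 to 80.69 and 70.5 to 73.04 FPKM at 144 h, with DES and LUM below 0.1 FPKM in all 4 groups. The 5 endothelial markers in the table summed to at most 0.32 FPKM in any library, and the 2 platelet markers to at most 1.1 FPKM. Of the 5 macrophage markers, 4 had group means below 0.1 FPKM and LYZ alone was high, at group means of 1113 to 1340 FPKM.

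The members ranged from near-silent to among the most abundant transcripts, as the plot of mean levels shows, and together they took 1.471% to 1.958% of a library's FPKM sum. The highest was SERPINA1, the gene of alpha-1-antitrypsin, at 3586 FPKM over the 12 libraries. C3, the component on which the complement pathways converge, followed at 1342 FPKM, and then A2M, a broad protease trap, at 1047 FPKM. TFPI averaged 306 FPKM, F2 (prothrombin) 300.2 FPKM, and the fibrinogen genes FGA and FGG 290.0 and 278 FPKM. In all, 17 members averaged at least 100 FPKM and 36 at least 10 FPKM, whereas 15 averaged less than 0.1 FPKM and 14 were listed at 0 in at least 1 library. The near-silent members included PLG (plasminogen), C7, C9 and THBD (thrombomodulin). Reads can be shared between the near-identical C4A and C4B, so the split between these genes is uncertain.

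**Figure D1:**
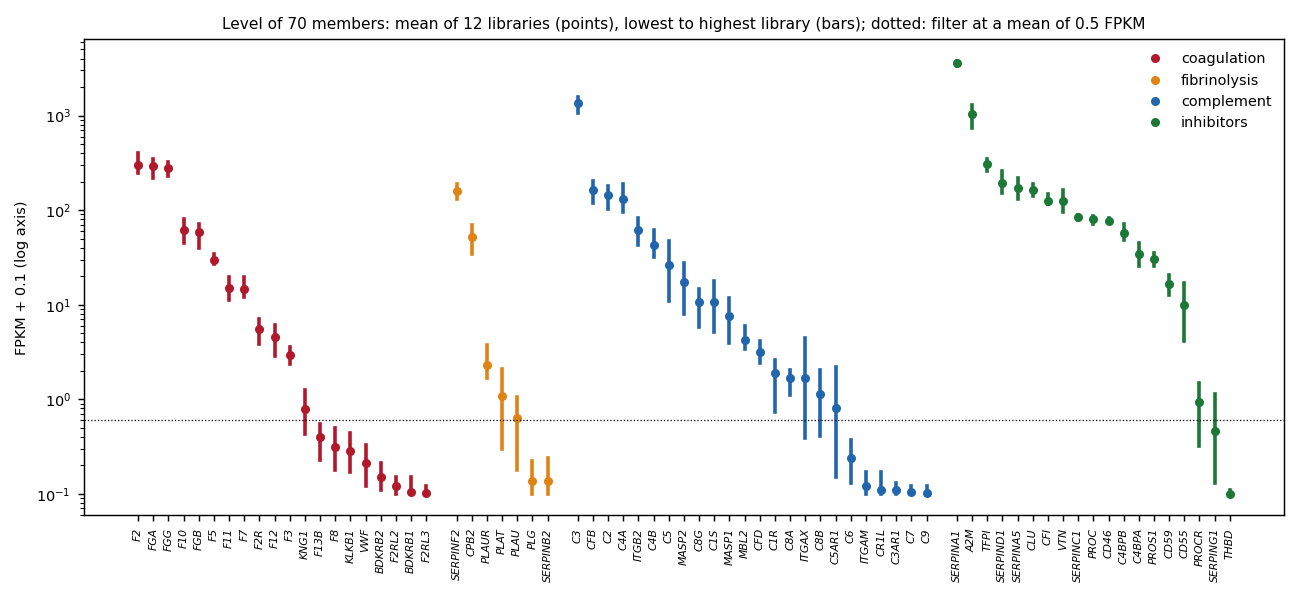
Mean FPKM + 0.1 over the 12 libraries on a log axis for 70 of the 74 members, grouped by role and ordered by level, with bars from the lowest to the highest library. The dotted line marks a mean of 0.5 FPKM, and 52 of the members drawn lie above it; SERPINA1 is highest at 3586 FPKM.

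Differences were tested as log2(FPKM + 0.1) with limma in the 11713 genes with a mean of at least 0.5 FPKM, which included 53 members: 12 of coagulation, 6 of fibrinolysis, 18 of complement and 17 inhibitors. A gene is said to rise or fall when its Benjamini-Hochberg adjusted p over all 11713 genes was below 0.05, and it is called a DEG when its log2 fold change also exceeded 0.58 in size, the threshold of the study. Log2 fold changes refer to FPKM + 0.1 and so understate the change of genes with low FPKM. Of the members tested, 7 had a group mean below 0.5 FPKM and passed the filter through their other groups (C5AR1, C8B, ITGAX, KNG1, PLAT, PLAU and PROCR). C5AR1 and ITGAX passed only through the groups at 144 h, PLAT and PLAU through those at 24 h and KNG1 through the untreated groups. A difference in that direction is partly built into their selection. In pooled spheroids, fewer cells of a type and less RNA per cell cannot be told apart.

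After 24 h of TPN nearly all members that passed the test were lower, mostly by small steps. Of the 53 tested, 22 fell, against a background of 5.46% of all genes tested, and 1 rose, against 5.04%. The median log2 fold change was -0.10 over the members and -0.0045 over all genes tested. The members that fell were 7 of 12 coagulation genes, 2 of 6 fibrinolysis genes, 5 of 18 complement genes and 8 of 17 inhibitors. A single member was a DEG, KNG1, against 0.914% of all genes. In 30 members all 3 exposed libraries lay below all 3 untreated ones (15.9% of all genes tested), and in 2 members all 3 lay above (13.9%).

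After 144 h the members went in both directions. Among the 53 members, 19 rose, beside 24.2% of all genes tested, and 18 fell, beside 28.3%, with a median log2 fold change of -0.02 in the members and in all genes. By role, 8 complement genes rose and 1 fell, and 3 coagulation genes rose and 7 fell. Of the fibrinolysis genes 3 rose and 2 fell, and of the inhibitors 5 rose and 8 fell. The DEGs that rose numbered 8 members (F2R, C1S, C1R, ITGAX, C5AR1, PLAUR, PLAU and PROCR; 5.75% of all genes), and those that fell numbered 3 (F12, KNG1 and SERPINA5; 3.73% of all genes). Exposed libraries lay wholly above the untreated ones in 21 members (27.2% of all genes) and wholly below in 18 (30.2%). Both directions appear in the plot of log2 fold changes at the 2 exposure times.

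Whether TPN acted differently at the 2 exposure times was asked with an interaction term, which subtracts the effect at 24 h from the effect at 144 h on the log2 scale. It was positive in 24 members past the test, against 14.1% of all genes tested, and negative in 7, against 16.3%. In complement it was positive in 11 of 18 members and negative in 0 of 18, with 1 complement member, C8G, negative at an unadjusted limma p below 0.05. With the fold-change threshold it was positive in 12 members (4.2% of all genes) and negative in 1, F12 (1.66% of all genes). The 2 effects share no library. Taken by call, 11 members fell at both times, 4 fell at 24 h and rose at 144 h (C5, CFI, FGA and FGG), 7 fell at 24 h without a call at 144 h, 14 rose and 7 fell at 144 h without a call at 24 h, 1 rose at both, and 9 were called at neither.

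**Figure D2:**
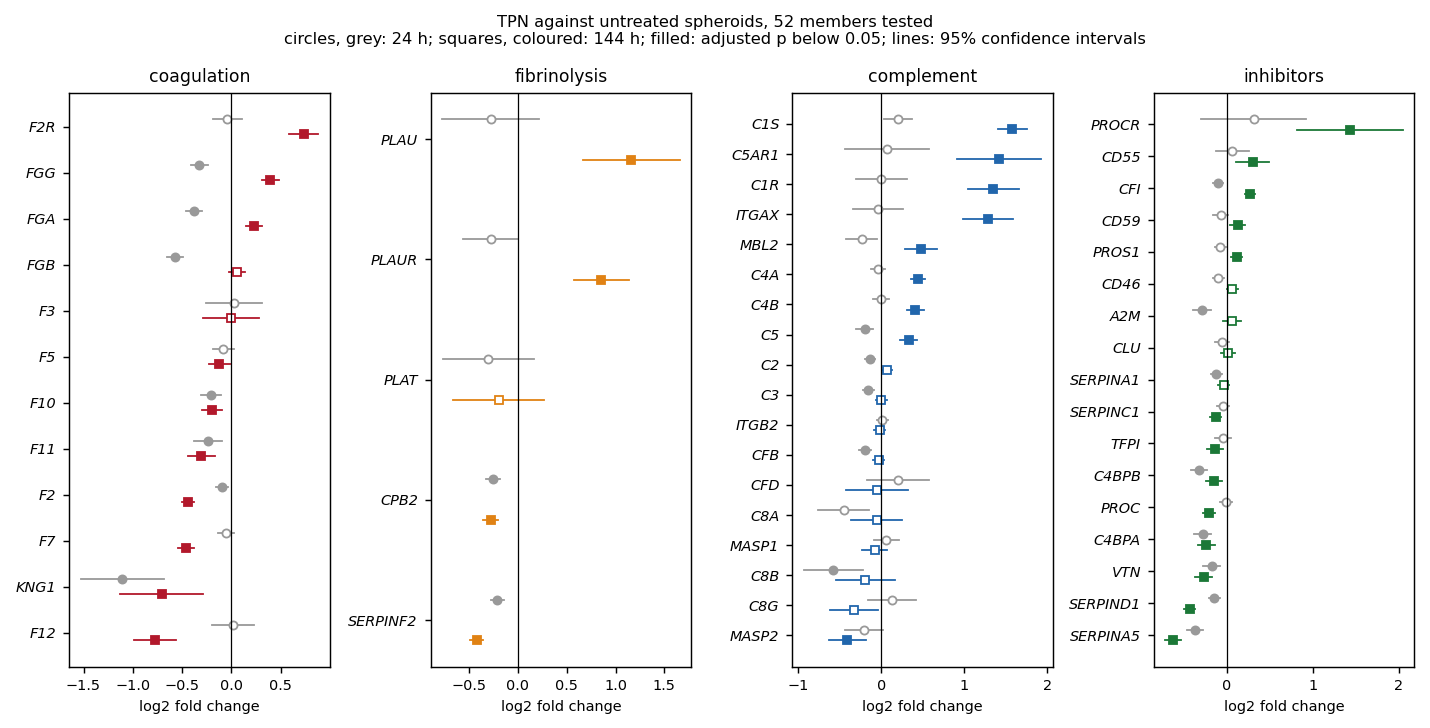
Log2 fold change of FPKM + 0.1, exposed against untreated, for 52 of the 53 members tested, in 4 panels by role with separate axes; grey circles are 24 h, coloured squares 144 h, filled symbols have an adjusted p below 0.05 and lines are 95% confidence intervals. The 22 filled circles drawn lie below 0, whereas filled squares lie on both sides, 18 above and 18 below.

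Culture time alone also moved these genes. The median of all genes tested was 0.18 lower on the log2 scale at 144 h than at 24 h, in untreated and in exposed spheroids alike, so changes over time are given relative to that median. In untreated spheroids 25 members rose (20.1% of all genes) and 19 fell (52.4% of all genes) on the FPKM scale, and 30 rose and 14 fell when libraries were scaled by median ratios. In exposed spheroids 30 members rose (24.2% of all genes) and 13 fell (52.0% of all genes), and 34 and 9 after median ratio scaling. Over time a gene is said below to rise or fall only if it did so on both scales, as 25 and 14 members did in untreated and 30 and 9 in exposed spheroids. CFI in untreated and SERPINF2 in exposed spheroids passed the test in opposite directions on the 2 scales. The time comparisons share libraries with the comparisons of TPN and are not independent of them.

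Fibrinogen is built from 3 chains whose genes lie side by side on chromosome 4, FGB at 154562980 to 154572807, FGA at 154583126 to 154590749 and FGG at 154604136 to 154612656 (GRCh38.p13). The 250 bases before each RefSeq start are shown because the 3 genes must supply 1 protein and moved together at 24 h. Capitals mark matches, on either strand, to GTTAATNAT (the motif of HNF1), CAAAGTCCA (HNF4), TTGCNNAA (C/EBP), TTCNNNGAA (STAT) or TGACNNNGC (antioxidant response element). The sequences run 5′ to 3′ along each gene's own strand and were taken from RefSeq (GRCh38.p14), FGA from chr4:154590743-154590992 on the minus strand, FGB from chr4:154562730-154562979 on the plus strand and FGG from chr4:154612657-154612906 on the minus strand.
FGA: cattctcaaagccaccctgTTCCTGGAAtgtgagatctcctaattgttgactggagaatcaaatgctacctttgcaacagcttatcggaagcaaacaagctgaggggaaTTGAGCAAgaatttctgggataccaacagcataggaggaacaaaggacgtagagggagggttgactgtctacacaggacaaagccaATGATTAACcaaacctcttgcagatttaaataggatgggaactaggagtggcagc
FGB: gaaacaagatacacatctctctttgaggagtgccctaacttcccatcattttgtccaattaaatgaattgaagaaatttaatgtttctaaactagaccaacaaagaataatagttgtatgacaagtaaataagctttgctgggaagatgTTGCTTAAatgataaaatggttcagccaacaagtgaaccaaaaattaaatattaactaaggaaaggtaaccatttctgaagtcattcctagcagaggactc
FGG: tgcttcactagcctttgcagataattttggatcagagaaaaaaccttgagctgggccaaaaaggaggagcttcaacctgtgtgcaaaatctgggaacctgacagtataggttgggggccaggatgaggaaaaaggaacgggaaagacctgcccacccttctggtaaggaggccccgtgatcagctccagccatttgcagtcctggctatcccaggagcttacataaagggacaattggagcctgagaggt
In FGA the STAT motif lies 231 to 223, the C/EBP motif 141 to 134 and the HNF1 motif 55 to 47 bases before the start, and FGB has a C/EBP motif 101 to 94 bases before it. FGG holds none of these letters in its window.

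All 3 fibrinogen genes fell at 24 h of TPN. FGA stood at 292, 295 and 289 FPKM in untreated libraries and at 231, 223 and 218 FPKM in exposed ones (-0.38 on the log2 scale, standard error 0.037, limma adjusted p = 1.51e-05). FGB was 61.2, 61.1 and 59.7 FPKM without and 42.0, 40.0 and 40.1 FPKM with TPN (-0.58, standard error 0.038, limma adjusted p = 3.5e-07). FGG was 303, 299.96 and 317 FPKM without and 255, 236 and 243 FPKM with TPN (-0.32, standard error 0.039, limma adjusted p = 1.08e-04). In each gene the exposed libraries were all below the untreated ones, and the groups were separated by far more than the spread within them. At 144 h the direction was not the same. FGA was 306, 277 and 308 FPKM in untreated and 343, 350.1 and 349 FPKM in exposed spheroids (0.23, limma adjusted p = 1.7e-04), and FGG was 249.2, 227 and 248.9 against 317, 315 and 320.2 FPKM (0.39, limma adjusted p = 1.78e-06). FGB, at 67.5, 62.5 and 66.7 against 65.4, 71.0 and 68.2 FPKM, overlapped between the groups (0.06, 95% confidence interval -0.02 to 0.14, limma adjusted p = 0.223). The interaction was 0.61 for FGA, 0.63 for FGB and 0.72 for FGG, and all 3 passed the test. Over time FGG fell in untreated spheroids (-0.16 relative to the median of all genes) and rose in exposed ones (0.56). FGA and FGB rose by 0.82 and 0.93 in exposed spheroids. In untreated spheroids FGB rose as well (0.11 before the median is subtracted).

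Prothrombin was lower with TPN at both times. F2 (gene 2147, chromosome 11, 46719210 to 46739506), the precursor of thrombin, was 272, 276 and 265 FPKM without and 248, 263 and 248 FPKM with TPN at 24 h. This fall was small (-0.10, limma adjusted p = 0.0446), and its call was lost in 15 of 22 alternative settings. At 144 h prothrombin stood at 385, 385 and 398 FPKM in untreated and 285, 287 and 289 FPKM in exposed spheroids, a clear separation (-0.44, standard error 0.029, limma adjusted p = 3.28e-08). The untreated level had risen over time by 0.71 relative to the median of all genes and the exposed level by 0.37, so exposed spheroids followed the same course less far (interaction -0.34, limma adjusted p = 4.16e-05).

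F7 and F10, adjacent genes on chromosome 13 (113105773 to 113120685 and 113122799 to 113149529), encode the protease that starts clotting with tissue factor and the protease that makes thrombin. F7 was 13.1, 12.5 and 12.6 FPKM without and 12.6, 12.1 and 12.01 FPKM with TPN at 24 h, with overlapping groups (-0.06, limma adjusted p = 0.392). At 144 h F7 was 19.3, 19.7 and 19.3 FPKM in untreated and 14.3, 13.7 and 14.2 FPKM in exposed spheroids (-0.46, standard error 0.037, limma adjusted p = 2.29e-07, interaction -0.41). F10 fell by similar amounts at both times, from 55.0 ± 3.83 to 47.5 ± 1.95 FPKM at 24 h (mean ± SD, n = 3; -0.21) and from 78.2 to 68.3 FPKM at 144 h (-0.19). The interaction passed the test for F7 and not for F10 (0.02, 95% confidence interval -0.12 to 0.16), and the difference between the 2 genes was not tested.

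F12, which opens the contact pathway, fell with TPN at 144 h. Its libraries were at 4.30, 4.38 and 4.73 FPKM without and 4.54, 4.57 and 4.45 FPKM with TPN at 24 h, and at 5.95, 5.32 and 5.57 against 3.89, 2.77 and 3.13 FPKM at 144 h. The groups overlapped at 24 h and were apart at 144 h (-0.78, standard error 0.097, limma adjusted p = 1.65e-05), and the interaction of -0.79 was the one negative value past the fold-change threshold. Over time F12 rose in untreated spheroids (0.51 relative to the median of all genes) and fell in exposed ones (-0.29). KNG1, the kininogen that carries factors of the same contact pathway, was low throughout, at 1.11, 1.16 and 0.73 FPKM without and 0.33, 0.40 and 0.49 FPKM with TPN at 24 h (-1.11, limma adjusted p = 0.00231). At 144 h it was 0.83, 0.93 and 0.79 against 0.39, 0.50 and 0.57 FPKM (-0.70, limma adjusted p = 0.00792), so it was lower with TPN in every library at both times. KNG1 values rest on few fragments, and the gene was not tested when only genes with a mean of at least 5 FPKM were kept.

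F11, another contact factor, fell at both times (-0.24 and -0.30), and F5, the cofactor of factor X, fell at 144 h (-0.13, limma adjusted p = 0.0452) with overlapping groups. F5 was not called at 24 h (-0.08, limma adjusted p = 0.331), and its interaction did not pass the test (-0.04, limma adjusted p = 0.689). F3 (tissue factor), the cellular trigger of clotting, gave values of 2.24 to 3.48 FPKM in all groups and no call in any comparison. F2R, the thrombin receptor PAR1, was the one coagulation DEG that rose. It was 5.84, 5.81 and 5.11 FPKM without and 5.32, 5.44 and 5.50 FPKM with TPN at 24 h, and 4.12, 3.93 and 3.77 against 6.11, 6.82 and 6.90 FPKM at 144 h (0.73, standard error 0.068, limma adjusted p = 1.01e-06). The gap at 144 h held a fall in untreated spheroids (-0.31 relative to the median of all genes) and a rise in exposed ones (0.46), and the interaction was 0.77.

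Proteins that clotting factors need on their way out of the cell were counted from a separate list of 7 genes, all tested. At 24 h 3 of them fell and 0 rose (5.46% and 5.04% of all genes tested), and at 144 h 3 fell and 1, the cargo receptor LMAN1, rose (28.3% and 24.2% of all genes tested). GGCX, the vitamin K-dependent carboxylase of F2, F7, F10, PROC and PROS1, was 54.7 ± 0.639 FPKM without and 46.7 ± 1.06 FPKM with TPN at 24 h and 38.0 ± 1.37 against 23.9 ± 0.228 FPKM at 144 h (log2 fold change -0.23 and -0.67, limma adjusted p = 4.7e-04 and 2e-09). FURIN, a protease that cleaves propeptides, fell from 32.2 to 20.7 FPKM at 24 h and from 18.2 to 11.03 FPKM at 144 h (-0.64 and -0.72). VKORC1, which recycles vitamin K, was 205 ± 3.38 and 206 ± 9.80 FPKM at 144 h (0.01, limma adjusted p = 0.915). The carboxylase and the recycling enzyme therefore differed in their calls.

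The plasminogen activators, which turn plasminogen into plasmin, were low. PLAU, the gene of urokinase, was 0.81, 0.95 and 0.70 FPKM without and 0.56, 0.70 and 0.71 FPKM with TPN at 24 h. At 144 h the untreated libraries had dropped to 0.25, 0.18 and 0.08 FPKM while the exposed ones were at 0.49, 0.52 and 0.44 FPKM (1.16, standard error 0.23, limma adjusted p = 7.64e-04). Under the alternative settings this log2 fold change ran from 0.34 to 1.58, so its size is uncertain. Relative to the median of all genes PLAU fell by 1.63 over time without TPN, and with TPN its change of -0.19 did not pass the test, so the difference at 144 h lies between 2 groups that both stood below their 24 h means. PLAUR, the receptor that holds urokinase on the cell, was 2.08, 2.46 and 2.24 FPKM without and 1.64, 1.75 and 2.17 FPKM with TPN at 24 h, and 1.56, 1.83 and 1.64 against 3.64, 2.56 and 3.22 FPKM at 144 h (0.86, limma adjusted p = 1.1e-04). It rose over time in exposed spheroids (0.91 relative to the median of all genes), and the interaction for PLAUR was 1.13 and for PLAU 1.44.

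PLAT, the tissue-type activator, fell over time in both conditions, from 1.83 ± 0.223 to 0.377 ± 0.157 FPKM without TPN and from 1.45 ± 0.0404 to 0.300 ± 0.0400 FPKM with it (-1.89 and -1.78 relative to the median of all genes). TPN gave no call for PLAT at 24 h (-0.30, 95% confidence interval -0.77 to 0.16) or at 144 h (-0.20, 95% confidence interval -0.66 to 0.27). SERPINF2, the plasmin inhibitor alpha-2-antiplasmin, fell with TPN from 167 ± 4.65 to 144 ± 1.51 FPKM at 24 h and from 183 ± 4.54 to 137 ± 5.28 FPKM at 144 h (-0.21 and -0.42). CPB2, the carboxypeptidase that protects fibrin from plasmin, fell at both times (-0.26 and -0.28) and also over time in both conditions. Both of these brakes on fibrinolysis were thus lower with TPN at both times. PLG was listed at 0 to 0.12 FPKM and was not tested. The levels by library are drawn in the plot of 12 members.

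**Figure D3:**
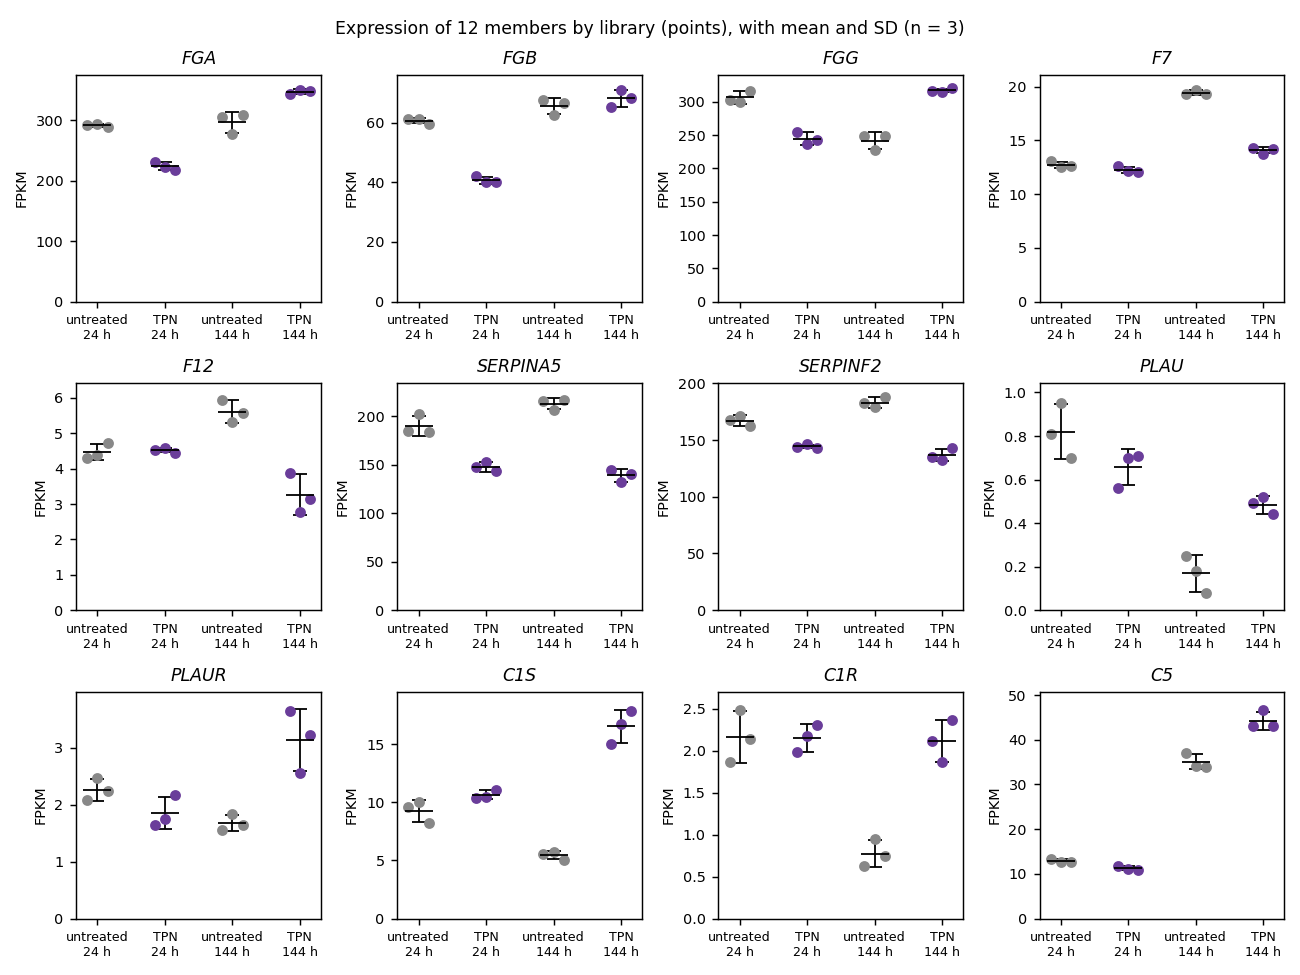
FPKM of 12 members in each library (points) with mean and SD of 3 libraries, in the order untreated 24 h, TPN 24 h, untreated 144 h, TPN 144 h; grey is untreated and purple exposed, and every axis starts at 0. FGA, FGB and FGG are lower with TPN at 24 h, F7 and F12 at 144 h, and SERPINA5 and SERPINF2 at both times. C1S, C1R, PLAU and PLAUR are higher with TPN at 144 h, where untreated libraries of all 4 lie below those of 24 h.

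C1S and C1R rose with TPN at 144 h. They encode the proteases of the C1 complex, which opens the classical pathway, and C1S lies on chromosome 12 at 7060717 to 7071032. C1S was 9.57, 9.99 and 8.21 FPKM without and 10.4, 10.5 and 11.1 FPKM with TPN at 24 h (0.20, limma adjusted p = 0.128). At 144 h it was 5.57, 5.74 and 5.04 against 15.0, 16.7 and 17.8 FPKM (1.58, standard error 0.079, limma adjusted p = 2.69e-09), a 2.99-fold difference with no overlap. C1R was 1.87, 2.48 and 2.14 FPKM without and 1.98, 2.17 and 2.30 FPKM with TPN at 24 h, and 0.63, 0.95 and 0.74 against 2.11, 1.86 and 2.36 FPKM at 144 h (1.35, standard error 0.14, limma adjusted p = 3.67e-06). In untreated spheroids both fell (-0.57 for C1S and -1.20 for C1R relative to the median of all genes), while in exposed spheroids C1S rose (0.81) and the value of C1R was 0.15 and not past the test. Their interactions were 1.38 and 1.35. The promoter of C1R is shown because this gene has an entry among the RefSeq promoters used and C1S has none; it comes from chr12:7092446-7092695 on the minus strand (GRCh38.p14), with a C/EBP motif 106 to 99 bases before the start in capitals.
C1R: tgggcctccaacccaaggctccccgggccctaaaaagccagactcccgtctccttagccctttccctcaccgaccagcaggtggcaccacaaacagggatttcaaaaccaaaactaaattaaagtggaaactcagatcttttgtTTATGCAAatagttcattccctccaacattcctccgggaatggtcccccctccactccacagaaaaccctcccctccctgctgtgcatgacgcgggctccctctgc

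Of the 74 members, 54 had a RefSeq promoter, 39 of them tested. The C/EBP motif TTGCNNAA occurred in 8 of these 39 promoters (20.51%), against 5.932% for all genes tested and 9.127% for all promoters. The STAT motif TTCNNNGAA occurred in 10 (25.64%, against 5.642% and 6.775%), the HNF1 motif in 2, FGA and C4BPA (5.128%, against 0.4052% and 0.6775%), and the antioxidant response element in 3, F10, PLAU and SERPIND1 (7.692%, against 12.3% and 11.03%). The HNF4 motif CAAAGTCCA was found in 0 of 39, where 0.2805% of all genes tested had it. At so low a share 0 of 39 says nothing about a lack of HNF4 sites, and 1 exact string misses other forms of the site. All windows have the same 250 bases, and some of these short motifs can overlap. The sets were not matched for base composition, so the shares cannot be read as specific to a factor. Of the 8 members with a C/EBP motif, CPB2, KNG1 and VTN fell with TPN at 144 h, C1R, FGA, MBL2 and PLAUR rose, and FGB was not called. The 8 genes thus did not share a direction. Of the factors themselves, CEBPA fell at 144 h from 46.1 ± 1.18 to 27.1 ± 2.15 FPKM (-0.77) and CEBPB rose from 54.5 ± 1.73 to 87.9 ± 3.10 FPKM (0.69). HNF4A fell from 85.7 to 67.2 FPKM, and STAT3 rose from 21.8 to 28.3 FPKM. In the list of 14 liver transcription factors and signal components, 9 fell and 3 rose at 144 h, beside 28.3% and 24.2% of all genes tested. Their part in the changes of the members was not tested.

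Of the next components of the classical pathway, C4A and C4B rose at 144 h. C4A was 97.0, 107 and 102 FPKM without and 95.1, 102 and 98.8 FPKM with TPN at 24 h, and 135, 142 and 134 against 187, 182 and 189 FPKM at 144 h (0.44, limma adjusted p = 6.72e-07). C4B gave 44.1 ± 1.39 and 58.6 ± 2.17 FPKM at 144 h (0.41), with the caution above on the split between the 2 genes. C2, the protease partner of C4, fell by a small step at 24 h (-0.14, limma adjusted p = 0.0047) and was not called at 144 h (171 ± 2.99 against 179 ± 2.67 FPKM, limma adjusted p = 0.0545). In the lectin pathway MBL2, the mannose-binding lectin, rose at 144 h from 3.81 ± 0.439 to 5.34 ± 0.424 FPKM (0.48, limma adjusted p = 4.3e-04, interaction 0.72). Its protease MASP2 fell from 12.9 ± 0.947 to 9.73 ± 1.62 FPKM (-0.41, limma adjusted p = 0.00525), and MASP1 was 11.2 ± 0.371 and 10.6 ± 0.1002 FPKM (-0.08, limma adjusted p = 0.348). The lectin and its proteases thus gave 3 different calls. Over time MASP1 and MASP2 also went apart, MASP1 up by 1.61 and MASP2 down by 0.77 on the log2 scale relative to the median of all genes in untreated spheroids.

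C3 and CFB, the core of the alternative pathway, fell at 24 h and were not called at 144 h. C3 was 1194, 1229 and 1199 FPKM without and 1062, 1095 and 1092 FPKM with TPN at 24 h (-0.16, standard error 0.032, limma adjusted p = 0.00593), and 1561, 1582 and 1475 against 1555, 1572 and 1486 FPKM at 144 h. The 95% confidence interval of the log2 fold change at 144 h ran from -0.07 to 0.07 and did not reach the estimate at 24 h. It rests on 1 spread shared by all groups. The SDs of C3 were 56.3 and 45.5 FPKM in untreated and exposed spheroids at 144 h, against 19.1 and 18.0 FPKM at 24 h. CFB was 138 ± 3.83 and 121 ± 1.302 FPKM at 24 h (-0.20, limma adjusted p = 9.72e-04) and 197 ± 4.22 and 192 ± 6.64 FPKM at 144 h (-0.03, 95% confidence interval -0.10 to 0.03). CFD, the protease that activates factor B, varied from 2.30 to 4.06 FPKM over all libraries and gave no call.

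The terminal components were uneven. C5 was 13.4, 12.8 and 12.8 FPKM without and 11.8, 11.2 and 10.9 FPKM with TPN at 24 h (-0.20, limma adjusted p = 0.0163), and 37.1, 34.2 and 34.0 against 43.0, 46.6 and 43.1 FPKM at 144 h (0.33, limma adjusted p = 5.84e-05). It thus changed sides, with an interaction of 0.53, and it rose over time in both conditions (1.61 and 2.14 relative to the median of all genes). C8A and C8B are neighbours on chromosome 1 (56854796 to 56918223 and 56929207 to 56974383). C8B fell at 24 h (0.613 ± 0.123 to 0.377 ± 0.0702 FPKM, -0.58, limma adjusted p = 0.04, a call lost in 12 of 21 alternative settings), C8A did not pass the test (-0.46, limma adjusted p = 0.0583), and neither was called at 144 h. C8G, the third subunit, was not called at either time (0.13 and -0.33, limma adjusted p = 0.608 and 0.0512). C6, C7 and C9, the other parts of the membrane attack complex, averaged 0.14, 0.0042 and 0.0017 FPKM and were not tested.

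The receptors ITGAX and C5AR1 were low at 24 h and higher with time. ITGAX, the integrin chain of complement receptor 4, was 0.39, 0.32 and 0.35 FPKM without and 0.42, 0.32 and 0.29 FPKM with TPN at 24 h. At 144 h it was 1.49, 1.5 and 1.77 against 3.99, 4.38 and 3.68 FPKM (1.29, standard error 0.14, limma adjusted p = 4.16e-06, interaction 1.33). C5AR1, the receptor of the fragment C5a, was between 0.05 and 0.18 FPKM in both groups at 24 h and 0.60, 0.63 and 0.74 against 1.63, 2.11 and 2.05 FPKM at 144 h (1.42, standard error 0.23, limma adjusted p = 1.86e-04, interaction 1.35). Both rose over time in untreated and in exposed spheroids, by 2.08 and 3.41 for ITGAX and by 1.95 and 3.30 for C5AR1 relative to the median of all genes. Both passed the filter only through their groups at 144 h, which favours a rise. Under the alternative settings, before the median is subtracted, the untreated rise ran from 0.93 to 2.14 for ITGAX and from 0.55 to 2.41 for C5AR1. In exposed spheroids the ranges were 1.90 to 3.52 and 1.37 to 3.76. ITGB2, the partner chain of ITGAX, rose over time in both conditions without any call for TPN, at 79.7 ± 2.78 and 78.5 ± 1.44 FPKM at 144 h. These receptors are best known from leukocytes. Of the 5 macrophage markers in the table, 4 averaged less than 0.1 FPKM in all 4 groups, PTPRC and TYROBP among them. LYZ, the remaining marker, was high at group means of 1113 to 1340 FPKM and rose with TPN at 144 h (0.27). Which cells gave the receptor transcripts was not tested.

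The inhibitors SERPINA5, SERPIND1, SERPINC1 and TFPI, which act on different proteases, fell with TPN at 144 h. SERPINA5, the protein C inhibitor (chromosome 14, 94581426 to 94593118), was 185, 202 and 184 FPKM without and 148, 153 and 143 FPKM with TPN at 24 h (-0.36, limma adjusted p = 9.53e-05), and 216, 207 and 217 against 145, 132 and 140.1 FPKM at 144 h (-0.62, standard error 0.043, limma adjusted p = 5.78e-08). SERPIND1, heparin cofactor II, fell from 173 ± 3.58 to 156 ± 2.67 FPKM and from 256 ± 2.99 to 190 ± 7.65 FPKM (-0.14 and -0.43). SERPINC1, antithrombin, was not called at 24 h (86.0 ± 2.77 against 83.5 ± 1.86 FPKM) and fell at 144 h by a small step (87.6 ± 2.51 to 80.1 ± 1.22 FPKM, -0.13, limma adjusted p = 0.00407). TFPI, which blocks the tissue factor complex, fell at 144 h (-0.13, limma adjusted p = 0.0186) and was not called at 24 h (-0.04), without a call for the interaction (-0.09, limma adjusted p = 0.291). All 4 were thus lower with TPN at the later time, by unequal amounts.

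The genes of the protein C system were called in both directions. PROC, the precursor of that anticoagulant protease, was 81.6, 80.4 and 80.3 FPKM without and 78.9, 84.6 and 78.5 FPKM with TPN at 24 h and fell at 144 h (83.8, 87.4 and 83.2 against 74.6, 72.0 and 73.9 FPKM, -0.21, limma adjusted p = 1.47e-04). Its cofactor PROS1 rose at 144 h (26.1 ± 0.257 to 28.3 ± 0.401 FPKM, 0.12, limma adjusted p = 0.00353). PROCR, the receptor that presents protein C, was 0.38, 0.22 and 0.54 FPKM without and 0.90, 1.19 and 1.39 FPKM with TPN at 144 h (1.43, standard error 0.28, limma adjusted p = 7.98e-04). Its groups overlapped at 24 h, and the interaction of 1.12 was close to the threshold (limma adjusted p = 0.0498, a call lost in 13 alternative settings). PROCR had fallen over time in untreated spheroids (-0.74 relative to the median of all genes).

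Of the broad protease inhibitors, SERPINA1 was 3738, 3701 and 3639 FPKM without and 3368, 3405 and 3418 FPKM with TPN at 24 h (-0.12, limma adjusted p = 0.0205, a call lost in 7 of 22 alternative settings), and 3670 ± 87.7 against 3584 ± 123 FPKM at 144 h (-0.03, limma adjusted p = 0.357). A2M was 933, 1014 and 862 FPKM without and 767, 785 and 745 FPKM with TPN at 24 h (-0.29, limma adjusted p = 0.00141) and not called at 144 h (0.06, 95% confidence interval -0.04 to 0.17). The most abundant members C3, A2M and SERPINA1 all fell at 24 h without a call at 144 h, as did C2, CFB, FGB and C8B.

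The complement regulators went both ways. C4BPA and C4BPB, the chains of C4b-binding protein and neighbours on chromosome 1 (207104232 to 207144972 and 207088795 to 207099993), fell at both times. C4BPA went from 42.7 ± 1.97 to 35.2 ± 1.36 FPKM and from 31.6 ± 0.804 to 26.8 ± 1.299 FPKM (-0.28 and -0.23), and C4BPB from 71.3 ± 0.683 to 57.3 ± 3.13 FPKM and from 54.0 ± 2.79 to 48.6 ± 0.792 FPKM (-0.32 and -0.15). VTN, vitronectin, which blocks the membrane attack complex, fell at both times too (-0.17 and -0.26). CFI, the protease that cuts C3b and C4b, fell by a small step at 24 h (126 ± 0.636 to 118 ± 1.56 FPKM, -0.10, limma adjusted p = 0.0325, a call lost in 7 of 22 alternative settings) and rose at 144 h (118 ± 2.31 to 143 ± 3.70 FPKM, 0.27, limma adjusted p = 1.86e-06).

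The membrane regulators CD55 and CD59 rose at 144 h by small steps. CD55, which takes apart C3 convertases, was 13.5, 14.3 and 13.2 FPKM without and 17.1, 16.5 and 17.1 FPKM with TPN (0.30, limma adjusted p = 0.0106), and it rose over time by 1.79 and 2.03 relative to the median of all genes. CD59, which stops the membrane attack complex, was 13.2 ± 0.459 and 14.4 ± 0.429 FPKM at 144 h (0.13, limma adjusted p = 0.0217) and fell over time in both conditions. CD46, which lies in the same cluster of regulators on chromosome 1 as CD55 and C4BPA, was not called at either exposure time (limma adjusted p = 0.0544 and 0.0785). CLU, clusterin, gave no call for TPN (-0.05 and 0.02) and rose over time in both conditions.

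**Figure D4:**
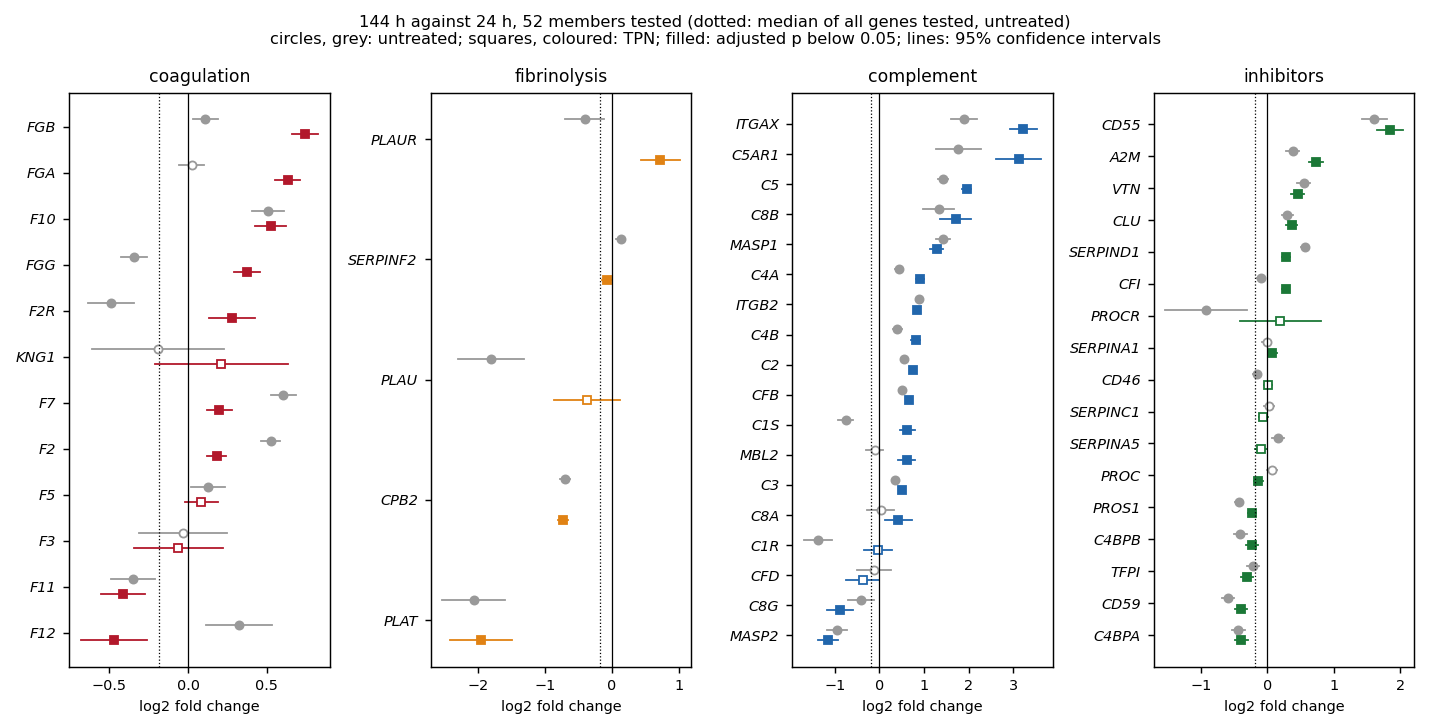
Log2 fold change of FPKM + 0.1 at 144 h against 24 h for 52 of the 53 members tested, in 4 panels by role with separate axes; grey circles are untreated and coloured squares exposed spheroids, filled symbols have an adjusted p below 0.05, lines are 95% confidence intervals and the dotted line is the median of all genes tested in untreated spheroids, 0.18 below 0. ITGAX, C5AR1 and C5 lie far to the right in both conditions and PLAT far to the left, whereas C1R and C1S are left of the dotted line in untreated and right of it in exposed spheroids.

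Markers of the cell types moved as well. With TPN at 144 h, where 28.3% of all genes tested fell, 9 of 10 tested hepatocyte markers fell and 0 rose, among them ALB, from 6044 ± 341 to 3863 ± 165 FPKM (-0.65), and 5 of 9 tested stellate markers fell and 0 rose. At 24 h, where 5.46% of all genes tested fell, 3 hepatocyte markers and 1 stellate marker fell and 0 of either list rose. The members that fell by 0.4 or more at 144 h, such as F2, F7, SERPINA5 and SERPIND1, did so beside ALB, whereas FGA, FGG, C4A and C5 rose in the same libraries. C1R, C1S, PLAU and PROCR rose while the stellate marker sum was 75.77 to 80.69 FPKM in untreated and 70.5 to 73.04 FPKM in exposed spheroids. Most of that sum came from ACTA2 and SPARC, which were not called, whereas the low markers COL1A1 (1.917 to 0.747 FPKM), COL3A1 (0.503 to 0.127 FPKM) and VIM (2.44 to 1.08 FPKM) fell, with log2 fold changes of -1.25, -1.40 and -1.07. The part of cell composition in these results was not tested. LYZ rose at 144 h (0.27), and the group means of the other macrophage markers were below 0.1 FPKM.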

How the data were processed

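RNA of the 12 spheroid libraries was sequenced strand-specifically on a DNBSEQ platform. Per the study's methods and the submitters' processing notes, the authors cleaned reads with SOAPnuke, aligned them with HISAT2 (2.0.4) to GRCh38.p13, mapped them to transcripts with Bowtie2 (2.2.5), quantified them with RSEM and deposited FPKM values rounded to 2 decimals. FPKM divides by transcript length and library size, so a few very abundant genes shift all others, and small values rest on few fragments (0.5 FPKM is about 15.83 fragments on 2000 bases). All columns were mapped to samples by their names, and 20 continuation lines of broken table cells were skipped.

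Because FPKM are not counts, log2(FPKM + 0.1) was tested with limma (3.58.1, R 4.3.3), with the 4 groups in 1 fit and an intensity trend, in genes with a mean of at least 0.5 FPKM. P-values were adjusted by Benjamini-Hochberg over all 11713 genes tested. Depth was estimated from steps of low values in 57 short genes, where 77.67% of 318 values lay within 0.15 of a whole number, so it is approximate. The fit was checked on simulated data. Tables and plots used Python 3.11.15, numpy 2.4.6, pandas 2.3.3 and matplotlib 3.10.9.

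Members were taken from the KEGG annotation and split by textbook role. The members, gene lists and naming rule were chosen with earlier results of these data known. The rule named members that were DEGs for TPN or the interaction, otherwise the 2 with the largest called change per role, the 10 most abundant, 20 textbook anchors, and the 5 that rose and fell most over time. Further members are named to account for the whole pathway. Alternatives varied the pseudocount, filter, scaling, groups fitted, trend and replicate block, or dropped single libraries. The results of some members and list genes are not reported here by name or drawn, although the counts include them.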

Additional observations from a re-analysis of the deposited data

Results flagged for a closer look

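In 13 members TPN had unlike effects at the 2 exposure times, by the interaction test and by more than 0.58 on the log2 scale, and these values are described here without an explanation. The difference, the log2 effect at the later time less that at the earlier one, was 0.61 for FGA, 0.63 for FGB and 0.72 for FGG among the fibrinogen genes. It was 0.77 for the thrombin receptor F2R and -0.79 for F12, the single negative value. Among the complement genes it was 1.38 for C1S, 1.35 for C1R, 1.35 for C5AR1, 1.33 for ITGAX and 0.72 for MBL2. In the plasminogen activator system it was 1.44 for PLAU and 1.13 for its receptor PLAUR, and for PROCR it was 1.12. For PLAU, PROCR, C5AR1 and ITGAX at least 1 group mean lay below 0.5 FPKM, where few fragments stand behind each value. Under the alternative settings the difference ran from 0.479 to 1.895 for PLAU and from 0.489 to 1.351 for PROCR. The size of both thus depended on the setting and could lie below 0.58.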

How the results depend on the processing

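Of 218 counts recomputed under an alternative, 206 stayed within 1.5 times their reported value. The single DEG at 24 h became 0 with a pseudocount of 1, 2 with a pseudocount of 0.01, 0 with a mean of at least 5 FPKM, 3 with libraries scaled to the same total and 2 after quantile normalization, and it ran from 1 to 2 when each library was left out, being 2 without untreated 24 h replicate 1 or 3 or TPN 24 h replicate 1 or 2. With a mean of at least 5 FPKM, which tests fewer genes, the DEGs numbered 3 for TPN at 144 h against 11, 5 for the interaction against 13, and 10 for untreated spheroids over time against 17. Members past the test ranged from 17 to 24 at 24 h (23 reported) and from 29 to 40 at 144 h (37 reported).

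Signs turned for values near 0. At 24 h C1R became 0.0001 with median ratios and 0.02 after quantile normalization and ran from -0.098 to 0.0966 when libraries were left out, C5AR1 from -0.2151 to 0.2351, F12 from -0.01 to 0.0573 and ITGAX from -0.1608 to 0.0468. PROC at 24 h was 0.0091 after quantile normalization and ran from -0.0369 to 0.0165, and C3 at 144 h ran from -0.0315 to 0.0231. Over time CFI in untreated spheroids became 0.0882 (median ratio) and 0.0765 (quantile), PROC in exposed spheroids 0.043 and 0.064, and SERPINA1 in exposed spheroids -0.2073 (quantile); the cause was not tested. PLAT at 144 h passed the test at -0.5003 without untreated 144 h replicate 2, and SERPINA1 at 144 h at -0.146 after quantile normalization.

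The labels number replicates 1 to 3 in every group. Deviations of same-numbered libraries correlated at -0.083 to 0.1508 (median 0.046, 5 of 18 pairs above 0.1). Those of other numbers correlated at -0.2411 to 0.1138 (median -0.016, 2 of 36 pairs above 0.1). The best match had the library's own number in 22 of 36 cases, and in all 3 other groups for 5 of 12 libraries. The correlations were weak but leaned toward the own number, so pairing remains possible. The main fit did not take the numbers as pairs. With a replicate block 22 members passed the test at 24 h, 38 at 144 h, 32 for the interaction, and 44 and 42 over time in untreated and exposed spheroids. The call of CFI at 24 h was lost without each of the 6 libraries at 24 h in turn, and that of SERPINA1 at 24 h without untreated replicate 1 or 2 or TPN replicate 1 or 2. The estimated depth limits members below 0.5 FPKM, which were not tested in the report.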

Other observations

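Members below the filter of 0.5 FPKM were also fitted, together with all other genes, with no filter on low values. SERPING1, the inhibitor of C1r and C1s, was higher with TPN at 144 h (log2 difference 1.28, limma adjusted p = 0.00467), as was PLG at 0.58 (limma adjusted p = 0.0169), while F13B, a subunit of the fibrin-crosslinking factor XIII, was lower (-0.81, limma adjusted p = 0.00524). All 3 averaged below 0.5 FPKM, so these values rest on few fragments.

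Genes related to haemostasis and complement outside the KEGG annotation were counted from a list of 20, of which 15 were tested. Not all of them encode plasma proteins. At 24 h 1 rose and 4 fell (5.04% and 5.46% of all genes tested), and at 144 h 6 rose and 7 fell (24.2% and 28.3% of all genes tested). ADAMTS13, the protease that trims von Willebrand factor, fell from 1.967 to 1.303 FPKM at 24 h and from 2.76 to 0.503 FPKM at 144 h (-0.56 and -2.27, limma adjusted p = 0.0212 and 1.96e-08). SERPINE2, a serpin that inhibits thrombin and urokinase, rose at 144 h from 3.73 to 10.24 FPKM (1.43, limma adjusted p = 1.22e-06). HGFAC fell from 21.6 to 14.2 FPKM (-0.60), and ANXA2, a cell-surface partner of plasminogen, rose from 120.4 to 173 FPKM (0.52). In the proliferation list all 6 genes fell with TPN at 144 h and 5 fell at 24 h, beside the same shares of all genes, and the 1 platelet marker tested, ITGA2B, gave no call for TPN.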
